A study of Ovis aries with 8 samples.

Results

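HBB, the adult beta chain of haemoglobin, and AHSP, the chaperone that binds free alpha globin chains (named ERAF on the array), are genes of the red cell lineage and were measured here in carotid arteries of fetal sheep. They were taken by name. Of 15008 probes analysed, 2 name HBB and 2 name AHSP, so 4 probes for 2 of the 826 named genes were followed on every array. Each of the 4 probes was printed as a single spot, and no spot was saturated or set aside as an outlier. The study put RNA from the arteries of 8 fetuses, taken at gestation day 140, on single-colour (Cy3) Agilent arrays, 1 fetus to an array. The 4 hypoxia fetuses came from ewes housed at 3801 m from gestation day 30 to day 135, which the titles give as 110 days of hypoxia, and the 4 normoxia fetuses from ewes housed at 300 m, which the titles call sea level. No genotype, sex or drug is named for either group, and nothing but a replicate number tells the fetuses apart, so any p-value speaks only of the spread among these samples, which may be technical.

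Haemoglobin is assembled from alpha-like and beta-like chains in erythroid precursors, and AHSP keeps unpaired alpha chains soluble until a beta chain is available. Young red cells still hold globin mRNA, so whole-tissue RNA of a vessel can carry transcripts of the blood in its lumen and of the small vessels in its wall. Fetal sheep red cells make mostly fetal haemoglobin, whose beta-like chain is the product of another gene of the cluster, and the adult beta chain replaces it around birth. HBB and AHSP were therefore followed array by array as candidate measures of residual blood, with the limit that fewer red cells and less RNA per red cell cannot be told apart in tissue RNA. The values below show where the 2 genes gave different orders of the arrays, so neither level is taken as an amount of blood.

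The probes differ in what they were designed on. The HBB probe A_70_P051261 was designed on the HBB reference transcript, and the array file links the same probe to the transcript of HBBC, the juvenile beta chain gene, so signal from these 2 genes cannot be separated. Whether it also binds the fetal beta-like transcript was not tested, which limits what its level means at this age. In the RefSeq gene list of assembly ARS-UI_Ramb_v3.0, used for names and gene order only, HBBC (listed as LOC100134870) lies on the chromosome of HBB with 3 genes between them, and the embryonic gene HBE1 lies on it with 6 genes between. The other HBB probe, A_70_P061046, and both AHSP probes, A_70_P054886 and A_70_P054887, were designed on expressed sequence tags, with the gene name given by the array file. Alpha globin and the embryonic and fetal beta-like chains were not analysed here, since no probe carried their names.

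The arrays differed in brightness. The 75th percentile of the processed signal, to which every level below is relative on the log2 scale, ranged from 97.9 on hypoxia 1 to 1387 on normoxia 3, and the percent of probes well above background from 59.5 to 94.8. Slide 1 held normoxia 1 and hypoxia 1, 2 and 3, slide 2 held normoxia 2 and hypoxia 4, and slide 3 held normoxia 3 and 4. The tissue label was checked against smooth muscle markers, of which 3 of 14 had a probe. The median log2 level of CNN1, MYLK and MYL6 was 4.98 on hypoxia 1 and lay between 7.06 and 8.66 on all other arrays. Hypoxia 1 thus stood apart in this check. In the fit across all probes by limma, 0 of 11211 probes (0%) passed a Benjamini-Hochberg adjusted p of 0.05 for hypoxia against normoxia, 3.68% had an unadjusted p under 0.05, and 48.3% had a fitted log2 fold change above 0.

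HBB was detected on all arrays and did not separate the groups. On the transcript probe A_70_P051261 its log2 level was 0.40, -1.05, -1.36 and -0.83 on normoxia 1 to 4. On hypoxia 1 to 4 it was -1.15, -0.39, 0.59 and -0.44. One fetus of each group, normoxia 1 and hypoxia 3, stood above its array's 75th percentile, at 1.32 and 1.51 times that signal, while the other 6 lay between 0.389 and 0.764 times. The groups overlapped throughout, and the whole span over the 8 arrays was 3.88-fold. The spot stood 1.79 times above its local background on hypoxia 1, the dimmest case, and 23.4 times on hypoxia 3, and this probe was well above background on 8 of 8 arrays.

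The EST probe of HBB gave much the same order of arrays. On A_70_P061046 the log2 level was -1.50, -2.68, -2.81 and -2.80 on normoxia 1 to 4 and -3.08, -2.41, -1.38 and -1.26 on hypoxia 1 to 4. Normoxia 1 again was the highest normoxia array, hypoxia 1 again the lowest hypoxia array, and hypoxia 4 here stood level with hypoxia 3. Over the 8 arrays the 2 HBB probes correlated with a Pearson r of 0.839 and a Spearman rho of 0.810, a description of 2 spots that share each array's RNA and scaling. Of 11210 probes compared, 9 followed the transcript probe more closely than the EST probe did. The EST probe was well above background on 7 arrays and missed it on hypoxia 1.

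**Figure D1:**
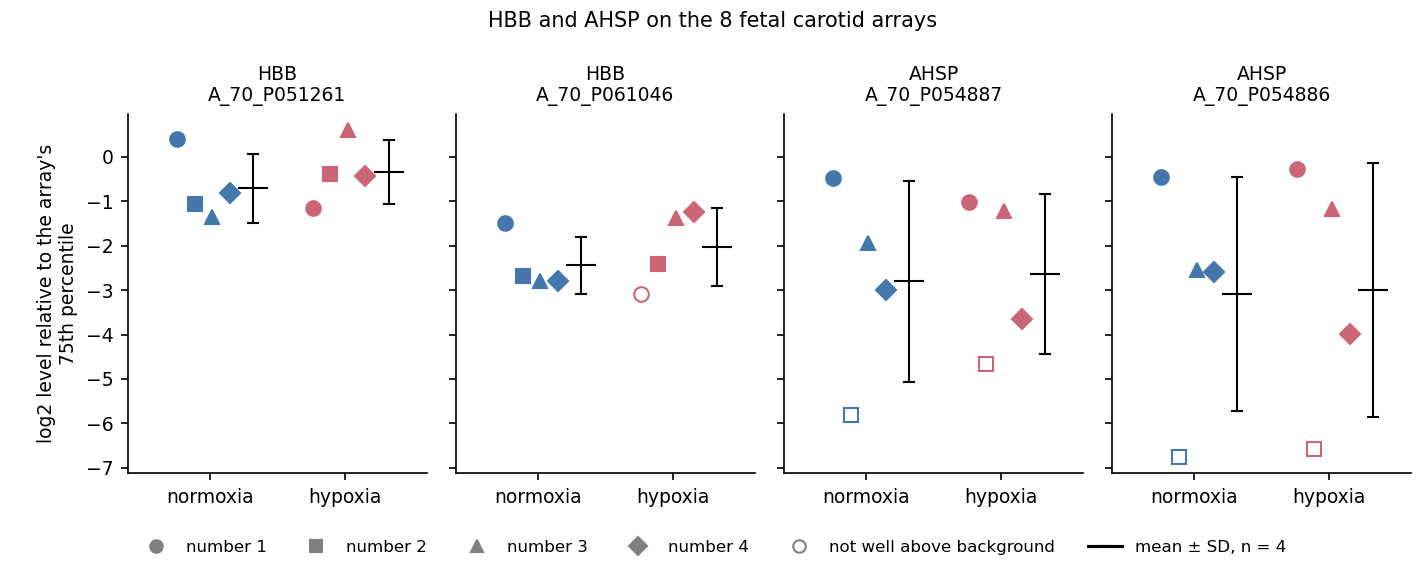
Log2 level relative to each array's 75th percentile (vertical axis) of the 2 HBB and 2 AHSP probes in normoxia and hypoxia; each point is an array, its shape the replicate number, open where the probe was not well above background, and bars are the mean ± SD of 4 arrays. HBB spans 3.88-fold on A_70_P051261, whereas AHSP on A_70_P054887 spans 9.06-fold over the 6 arrays where it was well above background, with the number 2 arrays lower still and below that limit in both groups.

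For the comparison of maternal hypoxia with normoxia, HBB on the transcript probe averaged -0.35 ± 0.72 (SD, n = 4) on the log2 scale in the hypoxia fetuses, and in the normoxia fetuses the mean was -0.71 ± 0.77 (SD, n = 4). The log2 fold change was 0.36 (SE 0.50), a fold of 1.29 with a 95% interval of 0.579 to 2.86 (limma adjusted p = 0.998, unadjusted p = 0.487). An exact permutation test over the 70 assignments of 8 arrays gave a two-sided p of 0.486, where the smallest p possible is 0.0286. The EST probe gave a log2 fold change of 0.41 (SE 0.51, limma adjusted p = 0.998). The difference was smaller than the SD within either group, and with an interval this wide neither a fall nor a rise of modest size could be detected. On the transcript probe the sign depended on the number 3 arrays. Its log2 fold change was -0.17 without the number 3 arrays of both groups (chosen after the data were seen), 0.05 without hypoxia 3 alone and 0.73 without normoxia 1. The EST probe stayed positive, at 0.08 without the number 3 arrays of both groups and 0.20 without hypoxia 3 alone.

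AHSP had a different pattern, with a wide range that was shared between the groups. On A_70_P054887, the AHSP probe with the higher mean, the log2 level was -0.48, -5.81, -1.94 and -3.00 on normoxia 1 to 4. On hypoxia 1 to 4 it was -1.03, -4.65, -1.23 and -3.66. In both groups number 1 was highest, number 3 next, then number 4, and number 2 was lowest, so the ranges of the groups overlapped. On the number 2 arrays neither AHSP probe was well above background, which leaves 3 normoxia and 3 hypoxia arrays with a measured AHSP signal. Over those 6 arrays A_70_P054887 spanned 9.06-fold, and its values on the number 2 arrays show only that AHSP was lower there. A_70_P054886 gave -0.46, -6.75, -2.56 and -2.60 on normoxia 1 to 4 and -0.28, -6.57, -1.19 and -3.98 on hypoxia 1 to 4. On normoxia 2 and hypoxia 2 this probe was at the lowest processed signal of its array, so those 2 values are floors and have no order.

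The 2 AHSP probes correlated with a Pearson r of 0.971 and a Spearman rho of 0.976 over the 8 arrays. Counting the number 2 arrays, AHSP varied more within groups than most probes did. The pooled SD within groups was 2.04 on A_70_P054887 and 0.746 for HBB on A_70_P051261, and 89.0% and 58.0% of the 11211 tested probes had a smaller one.

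On A_70_P054887 AHSP averaged -2.64 ± 1.80 (SD, n = 4) on the log2 scale in the hypoxia fetuses. The normoxia mean was -2.81 ± 2.25 (SD, n = 4). The log2 fold change was 0.16 (SE 1.27), a fold of 1.12 with a 95% interval of 0.148 to 8.51 (limma adjusted p = 0.998, exact permutation p = 0.914, two-sided). On A_70_P054886 it was 0.09 (SE 1.70, limma adjusted p = 0.998). The direction changed with the arrays included: on A_70_P054887 the value was -0.84 without normoxia 2, -0.37 without hypoxia 1, -0.31 without hypoxia 3, 0.94 without normoxia 1 and 0.83 without hypoxia 2. Without the number 2 arrays of both groups, where AHSP was not measured above background, it was -0.17 (an alternative added after the data were seen). All 4 member probes had a positive fitted value, beside 48.3% of all probes, and in all 4 the groups overlapped, as in all but 2.68% of probes.

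**Figure D2:**
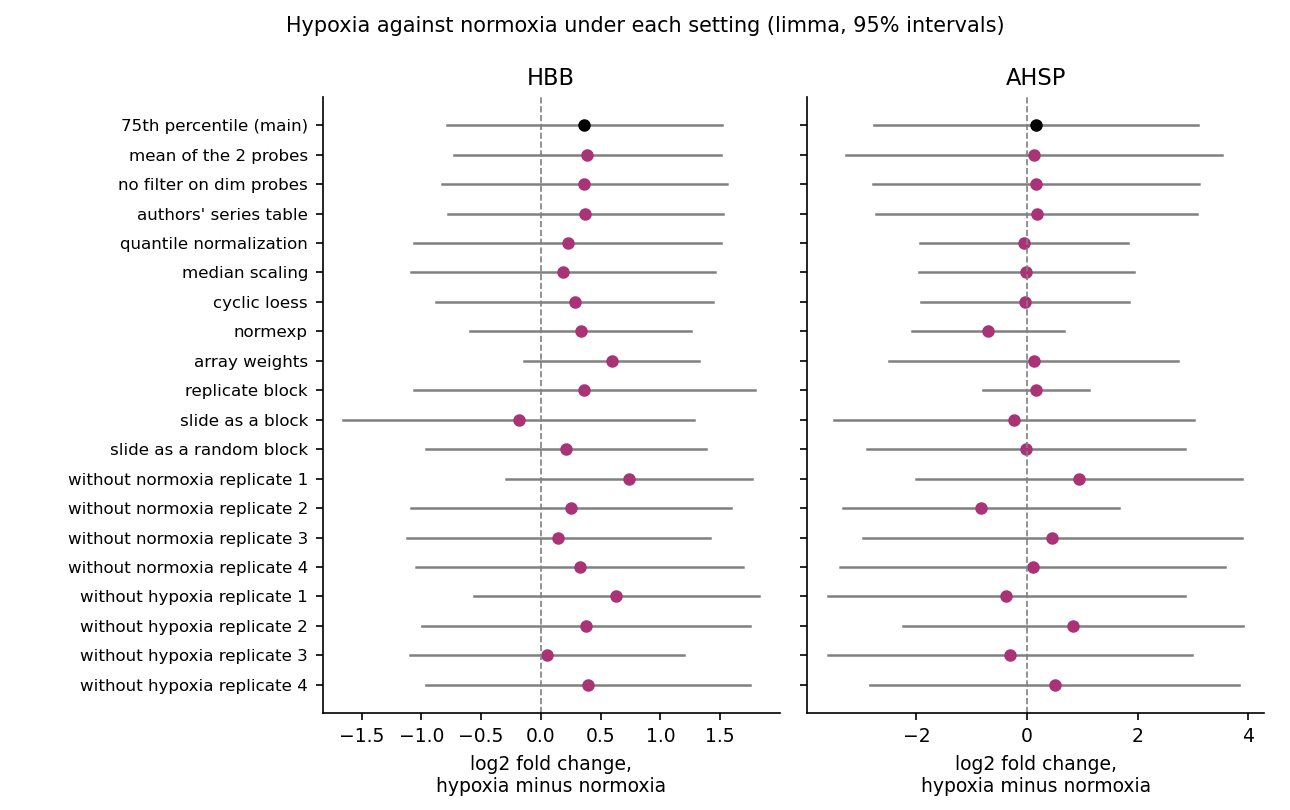
Log2 fold change, hypoxia minus normoxia (horizontal axis, log2), of HBB on A_70_P051261 and AHSP on A_70_P054887 under each setting named on the vertical axis; points are limma estimates and lines 95% intervals. Every interval includes 0, and that of AHSP runs from -2.76 to 3.09 in the main setting but from -0.79 to 1.12 with the replicate number as a block.

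Slides gave opposite values for both genes. Within slide 1 the log2 difference, hypoxia minus normoxia, was -0.72 for HBB on A_70_P051261 and -1.82 for AHSP on A_70_P054887. Within slide 2 it was 0.61 and 2.15. Each rests on 1 normoxia array, normoxia 1 or normoxia 2, and slide 3 held no hypoxia array, so these values have no error and their difference was not tested. AHSP was not well above background on normoxia 2, which enters its slide 2 value, or on hypoxia 2, which enters its slide 1 value. Both AHSP values therefore rest in part on levels that were not measured. Adjusted for slide, the log2 fold change was -0.19 (SE 0.61) for HBB and -0.23 (SE 1.35) for AHSP.

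Same-numbered arrays shared the AHSP level but not the HBB level. Over all tested probes same-numbered arrays deviated together too, with r from 0.434 to 0.820, so the sharing was not particular to AHSP. It was not particular to the number either. Normoxia 2 had an r of 0.801 with hypoxia 4, and normoxia 1 had 0.578 with hypoxia 3. Other arrays of unlike number ran opposite, down to -0.822 for normoxia 1 with hypoxia 4. Hypoxia minus normoxia within numbers 1 to 4 was -0.55, 1.16, 0.71 and -0.66 for AHSP on A_70_P054887, with an SD of 0.907. The difference of 1.16 within number 2 compares values that were not well above background. Over the 6 arrays where AHSP was measured its levels ran over 3.18 log2 units. For HBB on A_70_P051261 it was -1.56, 0.67, 1.95 and 0.39, with an SD of 1.45, against a span of levels of 1.95. Taking the replicate number as a block therefore lowered the SE of AHSP from 1.27 to 0.38 and raised that of HBB from 0.50 to 0.57. Neither gene passed with that block (limma adjusted p = 0.857 for AHSP and 0.787 for HBB), and the log2 fold changes of 0.16 and 0.36 are the same by construction. With the block the 95% interval of AHSP narrowed to -0.79 to 1.12 on the log2 scale.

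**Figure D3:**
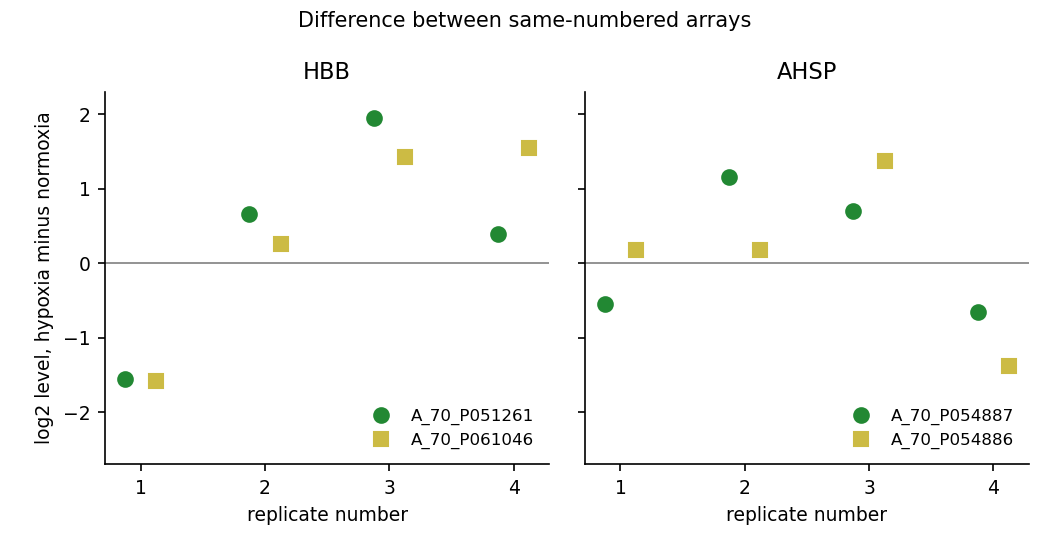
Hypoxia minus normoxia in log2 level (vertical axis) for each replicate number (horizontal axis), with both probes of each gene. HBB runs from -1.58 to 1.95 and changes sign between number 1 and the others, and AHSP runs from -1.38 to 1.37.

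No correlation of HBB with AHSP across the arrays was detected. Over the 8 arrays Pearson's r between A_70_P051261 and A_70_P054887 was 0.359 (exact permutation p = 0.374) and Spearman's rho was 0.167 (exact permutation p = 0.703), both with a Benjamini-Hochberg adjusted p of 0.703 over the 2 coefficients. Without hypoxia 3 and normoxia 1, the 2 arrays farthest from the median of HBB, r was -0.48 (exact permutation p = 0.338). Without the number 2 arrays of both groups, chosen after the data were seen, r was 0.35 (exact permutation p = 0.479). AHSP was not well above background on the number 2 arrays, and their values enter both the r of 0.359 and that of -0.48. With normexp background correction r was 0.48 (exact permutation p = 0.233) and rho was 0.60 (exact permutation p = 0.132). With median scaling r was -0.33 (exact permutation p = 0.443). The sign of r thus depended on the arrays included and on the scaling, and 8 arrays cannot settle whether the 2 genes moved together. Of 11210 probes, 43.1% followed AHSP more closely than HBB did. No slide holds the 6 arrays that a value within a slide would need, and arrays share slides and replicate numbers, so they are not fully independent.

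The ratio of the 2 genes within an array, which no scaling by a constant can alter, ranged widely in both groups. The log2 difference AHSP minus HBB moved from -4.76 on normoxia 2 to -0.57 on normoxia 3, and from -4.26 on hypoxia 2 to 0.13 on hypoxia 1. On both number 2 arrays AHSP was not well above background, so those low extremes are not measured ratios. Since probes differ in brightness, only its change between arrays can be read. It averaged -2.30 ± 1.90 (SD, n = 4) in the hypoxia fetuses, against -2.10 ± 1.90 (SD, n = 4) in the normoxia fetuses, a difference of -0.20 (exact permutation p = 0.914, two-sided). Without the number 2 arrays of both groups the difference was -0.43 (exact permutation p = 0.70, two-sided).

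**Figure D4:**
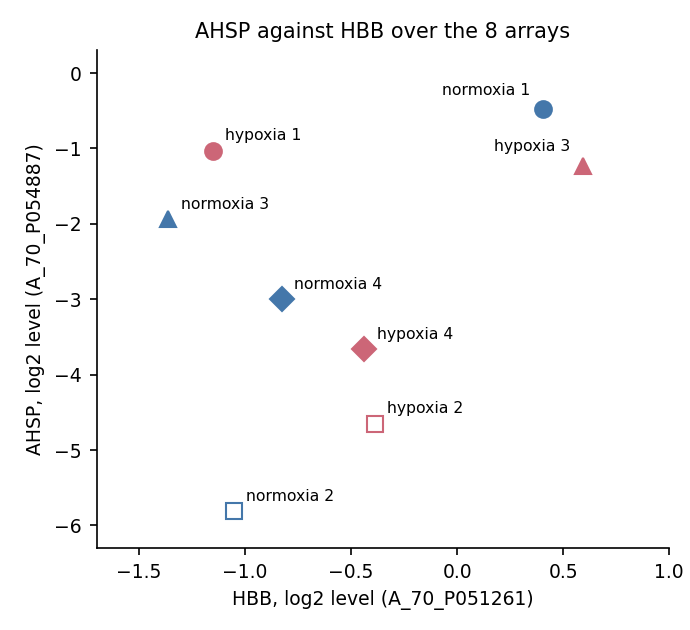
AHSP on A_70_P054887 (vertical axis) against HBB on A_70_P051261 (horizontal axis), both as log2 level relative to the array's 75th percentile; each point is an array, blue for normoxia, rose for hypoxia, open where AHSP was not well above background. Normoxia 1 and hypoxia 3 are high in both, and over the other 6 arrays r is -0.48.

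AHSP followed the main axis of variation of the arrays, and HBB stood nearly apart from it. The first principal component over the 11211 tested probes held 69.8% of the variance, and AHSP followed it with r of 0.918 on A_70_P054887 and 0.876 on A_70_P054886. For HBB r was 0.27 on A_70_P051261 and -0.02 on A_70_P061046. Accordingly 972 of 11209 other probes (8.67%) had an r of at least 0.9 with AHSP, and 1 probe had it with HBB. These are descriptions over 8 arrays, and the probes on an array share its RNA, depth of signal and scaling. The array medians relative to about the 75th percentile were also higher on numbers 1 and 3. They were 0.328 and 0.228 there in normoxia and 0.326 and 0.308 in hypoxia. On numbers 2 and 4 they were 0.132 and 0.137 in normoxia and 0.158 and 0.141 in hypoxia. With median scaling the SE of AHSP on A_70_P054887 was 0.88, against 1.27 in the main fit. The part of the arrays' signal distribution in the AHSP pattern was not tested.

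The named genes whose pattern was most like a member were taken by Pearson r over the 8 arrays among 619 named genes. For AHSP they were IL7, a lymphoid growth factor, at 0.982, THRB, a thyroid hormone receptor, at 0.981, CD3D, a T cell receptor component, at 0.973, ROBO2, a guidance receptor, at 0.972, and SP-B, named so in the file, at 0.971. Only THRB among these was well above background on 8 arrays. IL7 was on 6, SP-B on 5, and CD3D and ROBO2 on 4. On normoxia 2 and hypoxia 2, where AHSP was not well above background, CD3D was at the lowest processed signal of the array. The lowest SP-B level, -6.75, was likewise the floor of normoxia 2. For HBB they included BMP4, a bone morphogenetic protein, at 0.708, PER2, a circadian clock gene, at 0.708, ITGAV, an integrin chain, at 0.703, and DOHH, an enzyme that modifies a translation factor, at 0.666. A second probe of BMP4, PER2 and ITGAV gave 0.43, 0.43 and -0.02, so the likeness to HBB did not carry over between probes of these 3 genes.

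Of 55 other genes on the erythroid list, 4 had a named probe and 3 passed the filter on dim probes. None of the 3 passed the test by limma (each adjusted p = 0.998). Their median log2 fold change was -0.22, beside -0.02 for all tested probes, and it turned to 0.29 without hypoxia 2, 0.26 without hypoxia 4 and 0.26 without normoxia 1. EPOR, the erythropoietin receptor, was at -0.22 (SE 0.94) and was well above background on 5 arrays. UROD, an enzyme of haem synthesis present in most cells, was at -0.58 (SE 0.40) on 8 arrays. PKLR, the pyruvate kinase of liver and red cells, was at -0.06 (SE 1.57) on 4 arrays, and its sign turned to 0.32 with quantile normalization and to 0.11 in the authors' table. Leaving out 1 array also turned PKLR, to 0.96 without hypoxia 4, 0.70 without normoxia 1, 0.53 without hypoxia 2 and 0.37 without normoxia 3. CA1, a carbonic anhydrase abundant in adult red cells, was well above background on 1 array with one probe and on 0 with the other, so it gave no comparison.

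EPOR and PKLR followed AHSP with r of 0.926 and 0.908, and UROD ran the other way at -0.56. Of all probes compared, 8.67% had an r of at least 0.9 with AHSP. EPOR and PKLR were well above background on 5 and 4 arrays, and AHSP was not on the number 2 arrays. On normoxia 2 PKLR was at the lowest processed signal of the array. These r values therefore rest in part on levels that were not measured. With HBB the same 3 genes had r of 0.29, 0.27 and -0.40.

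Among 18 genes of haem clearance, iron and erythropoietin, 6 had a probe, 5 passed the filter and 0 passed the test (limma adjusted p). For FTH1, TF, KIT and KITLG the sign of the difference changed under some alternatives. FTH1, the ferritin heavy chain that stores iron, was at 0.02 (SE 0.37) on its brightest probe and at 0.24 (SE 0.33) on A_70_P003062. TF, the iron carrier transferrin, was at -0.07 (SE 0.24). ABCG2, a haem and drug exporter, was at -0.45 (SE 0.40), KITLG, the ligand of the KIT receptor of blood precursors, at -0.46 (SE 1.90), and KIT at -0.09 (SE 1.58). EPO, the hormone that drives red cell formation, was well above background on 1 array with one probe and 0 with the other.

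The share of marker probes that ran with AHSP differed between the lists of other cell types. An r of at least 0.7 with AHSP was had by 26.9% of all probes compared, by 7 of 13 tested probes of leukocyte markers, by 4 of 6 of adipocyte markers, by 5 of 6 of skeletal muscle markers and by 2 of 5 of liver and plasma proteins. Endothelial markers had it in 2 of 7 probes, and fibroblast (0 of 8), smooth muscle (0 of 3, median r -0.55) and platelet markers (0 of 2) in none. No probe of these lists reached 0.7 with HBB. Detection differed among the probes compared with AHSP. CD3D (r 0.97), CD4 (0.89) and MYOG (0.81 and 0.84) were well above background on 4 arrays. FCER1G (0.35 and 0.17) and TYROBP (0.40 and 0.58) were on 8, as was TNNC2 (0.90 and 0.88). The part of detection in these shares was not tested. Leukocyte genes, 9 of 22 with a probe, had a summed level of 1.21 to 3.71 times the 75th percentile in hypoxia and 2.18 to 4.36 times in normoxia. Of the 8 that passed the filter, each on its brightest probe, 8 had a fitted value below 0 and 0 passed the test. The median log2 fold change was -0.45, beside -0.02 for all tested probes, of which 48.3% were above 0. Other tested probes of CD14 (A_70_P030287) and LYZ (A_70_P051226) were positive, at 0.08 and 0.53. Other tested probes of ITGB2, TYROBP and FCER1G were below 0. The part of leukocyte genes in the AHSP values was not tested. The leukocyte markers CD3E and FCER1G were at -0.70 (SE 0.72) and -0.72 (SE 0.27) for hypoxia minus normoxia, and neither passed the test. On that FCER1G probe, A_70_P002706, the groups did not overlap, which held for 2.68% of all tested probes; its r was -0.38 with HBB and 0.35 with AHSP. On the other FCER1G probe, A_70_P002707, the groups overlapped, at -0.36 (SE 0.24). Of 11 platelet genes SELP alone had a probe, with a log2 fold change of 0.08 (SE 0.57), and its r was -0.04 with HBB and 0.12 with AHSP.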

How the data were processed

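Per the file headers, the authors extracted spot intensity with Agilent Feature Extraction 9.5.3.1 (protocol GE1-v5_95_Feb07, design 019921). The deposited processed intensity is background-subtracted and detrended on a linear scale, the mean spot and local background intensity are uncorrected, and the well-above-background, saturation and outlier flags came with them, per the file headers. The authors' deposited series table holds 1 ratio per probe. Set against the scanner values it matched processed intensity divided by a constant near each array's 75th percentile (lowest r of log2 values 0.995). It was not centred by probe and had a floor of 0.01. Its column medians were 0.328, 0.132, 0.228 and 0.137 (normoxia arrays in number order) and 0.326, 0.158, 0.308 and 0.141 (hypoxia arrays). The exact divisor stays unknown.

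Of 15744 spots, 536 controls were left out. Levels are log2 of processed intensity over its 75th percentile on that array, as a mean over a probe's spots; probes lacking a value on any array (72 after outlier spots were removed) were dropped, and those well above background on at least 4 of 8 arrays were tested. All 4 HBB and AHSP probes passed. Names came from accession, gene number, symbol, synonym or description against RefSeq, or from the file (1425 probes, 826 genes; 13583 unnamed); ERAF was read as AHSP. Hypoxia was compared with normoxia in limma 3.58.1 (R 4.3.3) without covariates, with Benjamini-Hochberg adjustment over 11211 probes; exact permutation tests used SciPy. Other normalizations, background correction, filters, blocks (number, slide), array weights and omission of each array were tried. The procedure was tested on simulated data. The brightest probe stood for its gene, all members of the erythroid list were named, and the 5 likest genes by r, of which 1 is not reported here.

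The members and gene lists were chosen with earlier results of these data known. Same-numbered arrays deviated together (r = 0.820, 0.726, 0.584 and 0.434 for numbers 1 to 4), so the number was used as a block in an alternative fit. Arrays of unlike number could be as alike (r = 0.801 for normoxia 2 with hypoxia 4), so these r do not establish the number as a pairing. The main fit and its permutation tests are unpaired, and no label states what number-mates have in common. Probe sequences were not used here.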

Additional observations from a re-analysis of the deposited data

Results flagged for a closer look

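On the EST probe of HBB, A_70_P061046, normoxia 1 had a log2 level of -1.50, while the other 3 normoxia arrays lay between -2.81 and -2.68. The gap to its nearest neighbour was 0.90 of the group's range, above Dixon's 95% limit for 4 samples. Of 22 groups of 4 examined in this way over HBB, AHSP and the other erythroid genes, 1 passed that limit, and chance gives about 1 in 20. On the transcript probe A_70_P051261 normoxia 1 was the highest normoxia array too, at 0.40.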

How the results depend on the processing

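No probe passed under any alternative of normalization, background, filter, block, weights or omitted array (0 each time by limma). HBB kept a positive log2 fold change on A_70_P051261 except when adjusted for slide (-0.19), within slide 1 (-0.72) and without the number 3 arrays (-0.17); omitting 1 array gave 0.05 to 0.73. On A_70_P061046 it turned to -0.79 within slide 1, -0.014 with normexp and -0.051 with quantile normalization, with 0.15 to 0.76 over omitted arrays. AHSP on A_70_P054887 turned negative with cyclic loess (-0.038), median scaling (-0.012), quantile normalization (-0.053), normexp (-0.70), slide as a block (-0.23) or random block (-0.013), within slide 1 (-1.82) and without the number 2 (-0.17) or number 3 arrays (-0.017), and ran from -0.84 to 0.94 over omitted arrays. A_70_P054886 gave -0.091 with cyclic loess, -0.089 with median scaling, -0.75 with normexp and -0.69 with array weights. The same probe gave -0.22 with slide as a block, -0.078 as a random block and -2.22 within slide 1. Its value was -0.34 without the number 3 arrays and ran from -1.13 to 1.28 over omitted arrays. Normexp moved the median of all probes to -0.32 and median scaling to -0.20. AHSP minus HBB ran from -1.09 to 0.46 over omitted arrays. The correlation of the genes was 0.48 with normexp, -0.33 with median scaling and -0.48 without the 2 arrays farthest from the median of HBB. Without the number 2 arrays this correlation was 0.35. The cause was not tested. The number 2 and number 3 arrays were left out after the data were seen. The AHSP probe has no value in the fit of probes well above background on all arrays. The replicate block changed no call: HBB stayed at 0.36 and AHSP at 0.16, 0 probes passed, and 1338 rather than 413 had an unadjusted p under 0.05.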
